A study of Mus musculus with 6 samples.

Results

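Stress and cancer long non-coding RNAs are transcripts that code for no protein and whose level changes with DNA damage, oxidative stress, growth or tumour formation. A list of 10 such genes was taken by symbol from the count table of the colorectal carcinoma line HCT116, which has 31456 rows, and 9 of the 10 had a row (LUCAT1, PURPL, NEAT1, MALAT1, GAS5, SNHG1, PVT1, H19 and MIR22HG). CCAT1 had no row of that name and was not analysed here. All 9 passed the filter on low counts. The study sequenced RNA from 3 parental and 3 oxaliplatin-resistant HCT116 libraries to find genes tied to resistance to oxaliplatin, a platinum drug that forms DNA adducts. HCT116 is an established human line of colorectal carcinoma cells. The labels name no other agent or genetic change. They leave unsaid how resistance was selected, whether the resistant line is 1 clone and whether drug was in the medium at harvest. They tie no library to a culture of its own, so the spread that the tests use may be technical.

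Long non-coding RNAs act in several ways. NEAT1 is the scaffold of paraspeckles, nuclear bodies that hold RNA-binding proteins, and MALAT1 is held in the splicing bodies called nuclear speckles. GAS5 and SNHG1 carry small nucleolar RNAs (snoRNAs) in their introns, and their spliced transcripts are removed by nonsense-mediated decay. PURPL is induced by p53 and lowers p53 levels, LUCAT1 was found in airway cells exposed to smoke and is linked to the oxidative stress factor NRF2, and MIR22HG is the host transcript of the microRNA miR-22. PVT1 lies beside the oncogene MYC, and H19 is an imprinted transcript beside the growth factor gene IGF2.

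The total count per library was 20246878 to 32138423, and a detection floor of 3 counts equalled 0.0975 to 0.153 CPM (counts scaled to library size with TMM normalization factors). Intervals and floors cover counting error only. Parental replicate 2 stood apart from its group. Its chi-square per gene against parental replicates 1 and 3 was 11.2 and 10.7, against 1.98 between those and 2.65 to 4.47 within the resistant group, where sampling noise alone gives about 1. Over all genes edgeR's quasi-likelihood test called 8933 of 16605 (53.8%) at an adjusted p under 0.05, of which 4534 rose and 4399 fell with resistance. Scaling by library size without TMM factors put 65.3% of the called genes on the higher side instead of 50.8%, and moved the median log2 fold change of all genes from 0.02 to 0.11. Of 7 epithelial markers tested 3 rose and 3 fell. The adhesion gene EPCAM was at 227 ± 7.10 CPM in parental and 196 ± 4.5 CPM in resistant cells (SD, n = 3), and CDH1 at 42.9 and 50.1 CPM. Both calls were lost on FPKM. The intestinal differentiation gene KRT20 rose 2.18-fold (edgeR adjusted p = 0.018), from 7 to 10 parental and 13 to 25 resistant counts. That call was lost in DESeq2 and on FPKM. The intestinal differentiation genes VIL1 and LGALS4 had at most 4 and 7 counts in a library. Of 12 stromal, immune and endothelial markers with a row, 3 of 4 tested were higher in the resistant cells (COL1A1, CD68 and PDGFRB). The PDGFRB call rested on 2 to 6 parental and 13 to 17 resistant counts and was lost on FPKM (limma adjusted p = 0.25 to 0.45). The summed level of the 12 went from 35.9 to 40.0 CPM among parental to 56.0 to 63.0 CPM among resistant libraries, and its part in the results that follow was not tested. DCN, LUM, CD3E, CDH5, PTPRC and COL1A2 had between 0 and 2 counts in each library.

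The 9 long non-coding RNAs fell into 3 patterns. PURPL, LUCAT1 and MIR22HG were higher in every resistant library. GAS5, SNHG1 and PVT1 were lower in every resistant library by less than 1.6-fold. NEAT1, MALAT1 and H19 did not pass the threshold. In the fit over all genes 6 of 9 were called, 3 in each direction, beside a share of 53.8% of all genes, of which 27.3% were called higher and 26.5% lower. The 3 called higher were also at least 2-fold higher, beside 5.58% of all genes, and 0 were at least 2-fold lower, beside 2.57%. Groups did not overlap for 7 of 9, with 3 higher and 4 lower in every resistant library, beside 31.3% and 29.9% of all genes. The genes were chosen with this contrast known, so their fold changes and calls are a description and nothing is read from the counts.

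**Figure D1:**
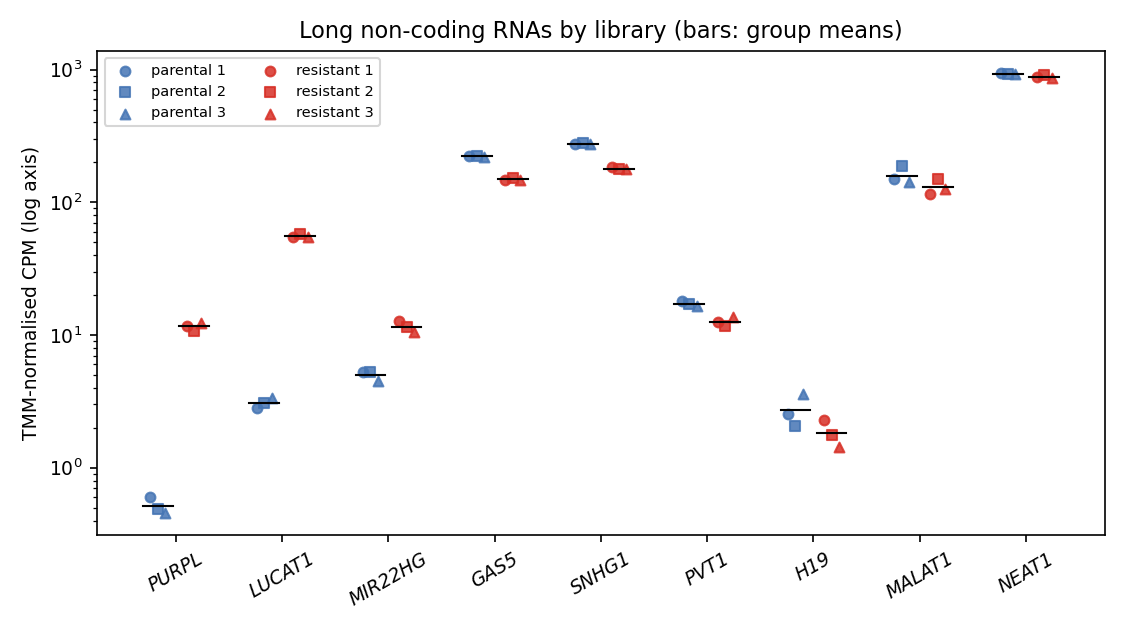
TMM-normalised CPM (log axis) of the 9 long non-coding RNAs in each of 3 parental (blue) and 3 resistant (red) libraries; symbols give the replicate number and bars the group means. PURPL and LUCAT1 move from near the bottom of the axis by more than a factor of 10, whereas the points of NEAT1 lie between 867 and 947 CPM in all libraries.

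PURPL (ENSG00000250337.6) had 16, 15 and 9 counts in parental replicates 1, 2 and 3 and 291, 316 and 320 counts in resistant replicates 1, 2 and 3. As normalised levels these were 0.601, 0.488 and 0.458 CPM against 11.7, 10.8 and 12.3 CPM. The groups lay far apart, and each parental value was above the detection floor. The exact Poisson 95% intervals of the parental counts were 9.15 to 26.0, 8.40 to 24.7 and 4.12 to 17.1 counts, so the parental level, and through it the fold, is known less well than the resistant one. The fitted difference was 22.2-fold, a log2 fold change of 4.47 ± 0.15 (SE). Over all 16605 tested genes this was the 34th largest rise. It was 4.40 to 4.58 on the log2 scale when each library was left out in turn. On the authors' FPKM (fragment counts scaled to gene length and library size) with a pseudocount of 1 it was 2.95, since a pseudocount of that size exceeds the parental FPKM of 0.410 to 0.610.

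LUCAT1 (ENSG00000248323.6) had 75, 94 and 66 counts in the parental and 1356, 1689 and 1432 counts in the resistant libraries. The levels were 2.82, 3.06 and 3.36 CPM against 54.5, 57.8 and 55.2 CPM. The parental libraries differed among themselves by at most 1.19-fold and the resistant libraries by at most 1.06-fold, far below the gap between the groups. LUCAT1 was 18.2-fold higher in the resistant cells (log2 fold change 4.19 ± 0.08 SE), the 44th largest rise over all tested genes. The log2 fold change ranged from 3.71 to 4.28 over all 15 alternative settings.

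MIR22HG (ENSG00000186594.14) had 5.26, 5.23 and 4.53 CPM in parental replicates 1, 2 and 3, against 12.7, 11.5 and 10.6 CPM with resistance, from 89 to 161 and from 274 to 337 counts. Each resistant value lay well above each parental value, though by much less than for PURPL and LUCAT1. The difference was 2.30-fold (log2 fold change 1.20 ± 0.10 SE). Only the host transcript was counted here, and the mature miR-22 was not measured.

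The stress list holds long non-coding RNAs reported to respond to DNA damage, hypoxia, heat or oxidation. Without LUCAT1, MIR22HG, NEAT1 and MALAT1, which are on it, 5 of 9 tested rose and 1 fell. Of all tested genes 27.3% rose and 26.5% fell. The median log2 fold change was 0.20 beside 0.02 for all tested genes. Over the whole list the alternatives called 4 to 7 genes higher and 0 to 3 lower. MIR210HG, the host of the hypoxia microRNA miR-210, rose 2.0-fold from 2.83 ± 0.262 to 5.65 ± 0.220 CPM (SD, n = 3; edgeR adjusted p = 3.9e-05). LINC00963 rose 1.45-fold, from 26.1 ± 0.848 to 37.9 ± 1.28 CPM (edgeR adjusted p = 8.9e-06). On FPKM the LINC00963 call was lost, with a log2 fold change of 0.25 and a limma adjusted p of 0.39 at a pseudocount of 1. MIR31HG was the gene that fell, from 4.84 to 2.79 CPM.

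Besides PURPL, NEAT1 and PVT1, 3 tested long non-coding RNAs are linked to p53, of which 1 rose and 1 fell. MIR34AHG, the host transcript of the p53-induced miR-34a, rose 1.77-fold from 5.55 ± 0.337 to 9.79 ± 0.378 CPM (SD, n = 3; edgeR adjusted p = 1.8e-05). LINC-PINT, a p53-induced transcript, fell 2.08-fold from 29.6 ± 3.18 to 14.2 ± 0.876 CPM (edgeR adjusted p = 9.0e-07). The LINC-PINT call was not present on FPKM, where the log2 fold change was near 0 and the limma adjusted p was at least 0.99. Among protein genes induced by p53, 13 of 26 tested rose, 4 fell and 9 were not called (median log2 fold change 0.27). Beside this, 27.3% of all tested genes rose and 26.5% fell, and no set test was made. GDF15, a stress cytokine, rose 2.46-fold, and GADD45A, a DNA damage response gene, rose 2.24-fold. The cell cycle inhibitor CDKN1A, named after its values were seen, differed less, from 208 to 250 CPM. The MYBBP1A gene, whose protein binds PURPL, fell 1.43-fold from 145 ± 9.80 to 101 ± 1.32 CPM (SD, n = 3; edgeR adjusted p = 7.1e-06).

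Among genes induced by NRF2, 21 of 25 tested rose and 1 fell, beside 27.3% and 26.5% of all tested genes. Their median log2 fold change was 0.86. OSGIN1, an oxidative stress growth inhibitor, rose 10.6-fold from 13.6 ± 1.32 to 144 ± 4.19 CPM (SD, n = 3; edgeR adjusted p = 1.0e-11). The sulfiredoxin gene SRXN1 rose 3.13-fold. The 18.2-fold difference of LUCAT1 was larger than that of each of these 25 genes. The efflux pump gene ABCC2 was the one that fell.

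**Figure D2:**
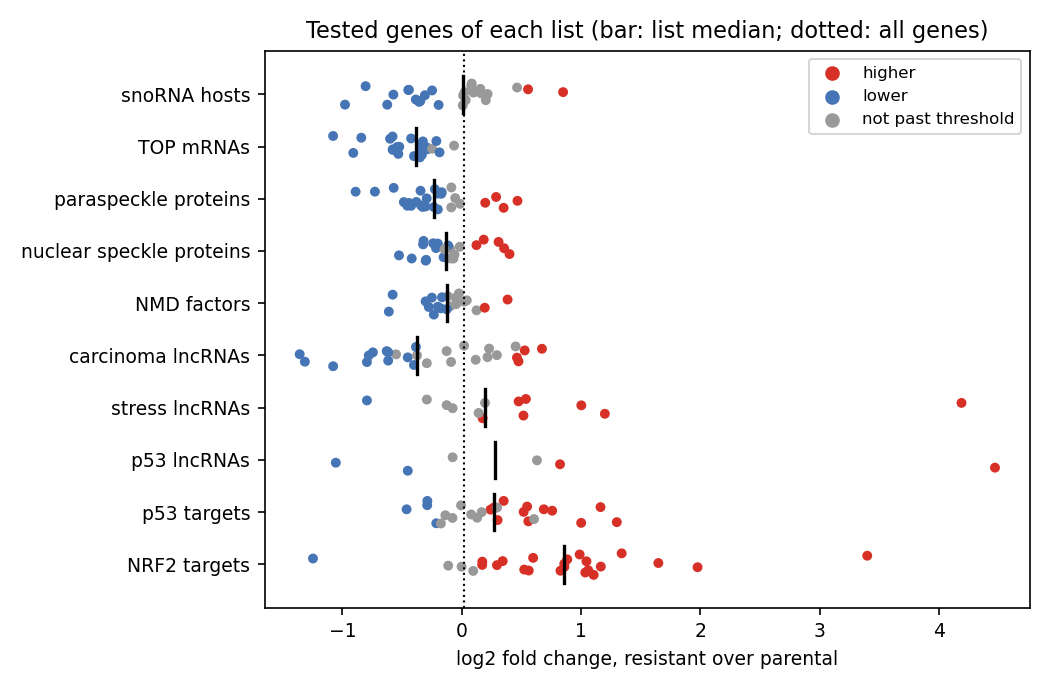
Log2 fold change (resistant over parental) of each tested gene in 10 gene lists; red points passed the threshold as higher, blue as lower, grey points did not pass, bars are list medians and the dotted line is the median of all tested genes. The NRF2 targets have a median of 0.86 and the TOP mRNAs, 22 of 24 of which fell, a median of -0.38, while the 2 points beyond 4 are PURPL and LUCAT1.

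GAS5 (ENSG00000234741.8) had 225, 222 and 219.8 CPM in parental replicates 1, 2 and 3 and 147, 153 and 148 CPM in resistant replicates 1, 2 and 3, from 3664 to 6829 counts per library. The values within each group differed by less than 1.04-fold, and the groups did not overlap. GAS5 was 1.49-fold lower in the resistant cells (log2 fold change -0.57 ± 0.04 SE). On FPKM the log2 fold change was -0.26.

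SNHG1 (ENSG00000255717.6) had 275, 280.4 and 275 CPM as parental replicates 1, 2 and 3, but 183, 178 and 177 CPM as resistant ones. These values again lay in 2 narrow groups, and SNHG1 was 1.54-fold lower (log2 fold change -0.62 ± 0.04 SE). The log2 ratio of SNHG1 to GAS5 counts, which does not depend on the scaling between libraries, was 0.32 ± 0.02 in the parental and 0.26 ± 0.05 in the resistant libraries (SD, n = 3). In counts the 2 hosts thus kept nearly the same proportion to each other, whereas on FPKM the log2 fold change of SNHG1 was -0.48 and that of GAS5 -0.26.

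Counted in either direction, other snoRNA host genes were called about as often as genes in general, but most of the calls were falls. Without GAS5 and SNHG1, 10 of 24 tested fell and 2 rose, beside 26.5% and 27.3% of all tested genes. In either direction 12 of 24 were called, beside 53.8% of all tested genes. The median log2 fold change was 0.02, the same as for all tested genes to 2 decimals. SNHG4 fell 1.97-fold from 101 ± 3.01 to 51.2 ± 2.31 CPM (SD, n = 3; edgeR adjusted p = 2.1e-08). SNHG3 fell 1.75-fold from 101 ± 7.53 to 58.0 ± 0.882 CPM, a call that was lost on FPKM (log2 fold change -0.35, limma adjusted p = 0.093 with a pseudocount of 1). SNHG21 rose 1.80-fold and LINC02001 (SNHG30) rose from 4.30 to 6.32 CPM. The abundant host SNHG29 averaged 331 and 339 CPM in parental and resistant cells (log2 fold change 0.03 ± 0.05 SE), and ZFAS1 had 65.7 and 66.1 CPM. With library sizes alone the number of hosts called higher, GAS5 and SNHG1 included, was 6 instead of 2, and 10 instead of 12 were called lower.

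**Figure D3:**
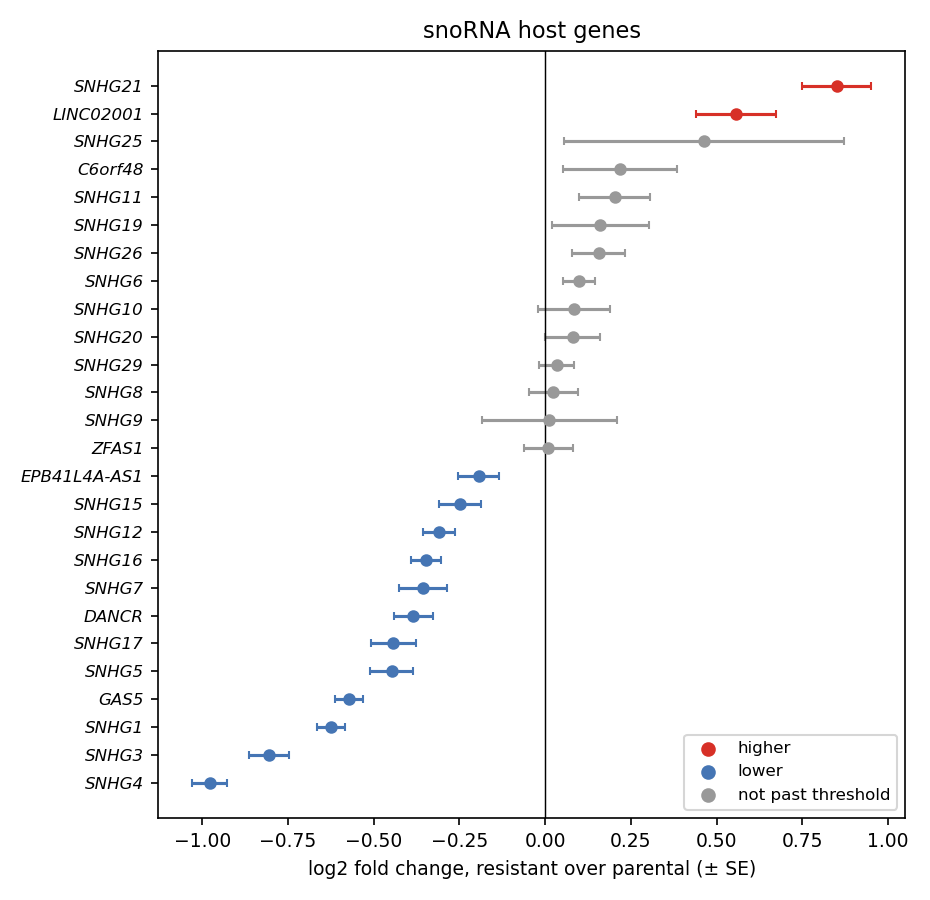
Log2 fold change (resistant over parental, ± SE) of the 26 tested snoRNA host genes in edgeR; colours give the call. GAS5 and SNHG1 stand at -0.57 and -0.62 among 12 genes that fell, SNHG3 and SNHG4 fell further, and SNHG21 and LINC02001 rose.

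Many snoRNA hosts share a terminal oligopyrimidine (TOP) start with mRNAs of the translation machinery. Of 24 TOP mRNAs tested 22 fell and 2 were not called in edgeR, beside 26.5% of all tested genes that fell. None rose, in edgeR or in any of the 15 alternatives, DESeq2 and limma on FPKM included, and at an unadjusted p under 0.05 the number higher in edgeR was 0. The median log2 fold change was -0.38. The genes named next had the smallest adjusted p of the list and fell by more than this median. PABPC1, the poly(A)-binding protein gene, fell 2.11-fold from 2007 ± 87.6 to 951 ± 31.9 CPM (SD, n = 3; edgeR adjusted p = 6.4e-09). The initiation factor genes EIF3H and EIF3E fell 1.88-fold and 1.79-fold, and NPM1, the nucleophosmin gene, fell 1.49-fold. The count of falls was 20 to 23 over all alternatives.

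NEAT1 (ENSG00000245532.8) had 947, 924 and 923 CPM as parental replicates 1, 2 and 3 and 875, 908 and 867 CPM as resistant ones, from 18127 to 28428 counts, and ranked 85th by mean CPM of all tested genes. Each resistant value was below each parental value by a small margin, with no overlap, as for 61.2% of all tested genes. The log2 fold change was -0.08 ± 0.04 (SE) and did not pass the threshold. It was 0.02 with library sizes alone, so the direction depends on the scaling.

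MALAT1 (ENSG00000251562.8) had 149.7, 186 and 141 CPM in the parental replicates, and 116, 149 and 125 CPM in the resistant replicates. The groups overlapped, and replicate 2 was the highest of each group. The log2 fold change was -0.29 ± 0.14 (SE) and did not pass the threshold. It was -0.16 without parental replicate 2, and -0.40 without resistant replicate 2, where it was called.

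The mRNAs of proteins that sit with these nuclear RNAs were also counted, beside 26.5% of all tested genes that fell and 27.3% that rose. Of 27 paraspeckle protein genes tested, 19 fell and 4 rose (median log2 fold change -0.23), beside -0.08 for NEAT1 itself. PSPC1, a core paraspeckle protein gene, fell 1.85-fold from 82.1 ± 1.5 to 44.4 ± 0.404 CPM (SD, n = 3; edgeR adjusted p = 2.0e-08). SFPQ and NONO, which bind NEAT1 directly, fell by 0.44 and 0.34 on the log2 scale. Of 22 nuclear speckle genes tested 11 fell and 5 rose (median log2 fold change -0.13). The splicing factor gene U2AF2 fell 1.44-fold and the speckle scaffold gene SON from 467 ± 7.28 to 375 ± 9.49 CPM (SD, n = 3), whereas the kinase genes CLK1 and CLK4 rose by 0.31 and 0.40 on the log2 scale. On FPKM with a pseudocount of 1, 6 speckle genes were called lower in place of 11, and 2 paraspeckle genes higher in place of 4.

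PVT1 (ENSG00000249859.10) had 18.2, 17 and 16.5 CPM in the parental group, against 12.5, 11.6 and 13.8 CPM among resistant libraries, from 312 to 523 counts. The groups did not overlap, and PVT1 was 1.37-fold lower (log2 fold change -0.45 ± 0.08 SE). The authors' FPKM of PVT1 behaved differently. They were 167, 72.3 and 156 in the parental and 95.5, 94.1 and 267 in the resistant libraries, a spread that the counts do not have. On that unit the log2 fold change was 0.12 and not past the threshold (limma adjusted p = 0.88 to 0.90), so the direction given for PVT1 holds for the counts and not for the FPKM.

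MYC, the transcription factor gene next to PVT1, fell further. It went from 320.0 ± 3.19 to 172 ± 2.33 CPM (SD, n = 3), a 1.86-fold drop (edgeR adjusted p = 6.2e-09), and the log2 ratio of MYC to PVT1 counts went from 4.22 ± 0.07 to 3.77 ± 0.14 (SD, n = 3). CASC19, a transcript of the same gene-poor region near MYC as CCAT1, fell 2.56-fold from 13.8 ± 0.959 to 5.35 ± 0.204 CPM (edgeR adjusted p = 1.9e-07). CASC8 of this region, named after its values were seen, fell from 1.67 to 1.0 CPM.

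H19 (ENSG00000130600.18) was low in all libraries, with 68, 63 and 70 counts in the parental and 57, 52 and 37 counts in the resistant libraries. These were 2.56, 2.05 and 3.56 CPM against 2.29, 1.78 and 1.43 CPM. The groups overlapped, and the parental values spread by 1.74-fold. The log2 fold change of -0.55 ± 0.23 (SE) did not pass the threshold. It passed without parental replicate 2 (-0.73) and without resistant replicate 1 (-0.74), and was -0.34 without parental replicate 3. On FPKM it was -0.10 with a pseudocount of 1 and -0.16 with 0.1 (limma adjusted p = 0.65 to 0.76).

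IGF2, the imprinted neighbour of H19, fell 3.10-fold from 21.5 ± 2.59 to 6.88 ± 0.741 CPM (SD, n = 3; edgeR adjusted p = 1.9e-07). The log2 ratio of IGF2 to H19 counts was 3.13, 3.19 and 2.73 in the parental and 1.48, 2.12 and 2.19 in the resistant libraries, without overlap, so IGF2 was lower relative to H19 in each resistant library.

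Further long non-coding RNAs reported in carcinomas were counted without PVT1, H19 and MALAT1. Of 24 tested 11 fell and 4 rose (median log2 fold change -0.25), beside 26.5% and 27.3% of all tested genes. MIR100HG, host of the miR-100 and let-7a-2 cluster, fell 2.49-fold from 78.5 ± 5.60 to 31.5 ± 1.62 CPM (SD, n = 3; edgeR adjusted p = 1.3e-08). UCA1, a transcript first found in bladder carcinoma, fell 1.53-fold from 31.2 ± 2.01 to 20.3 ± 1.46 CPM, and DLEU2, host of the miR-15a and miR-16-1 pair, fell 1.72-fold. LINC00511 rose 1.38-fold from 14.4 ± 0.663 to 19.9 ± 0.843 CPM (edgeR adjusted p = 1.0e-04). On FPKM with a pseudocount of 1 the number of these carcinoma transcripts called higher, over the whole list, was 2 instead of 4.

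Genes that neighbour the 9 transcripts did not share 1 direction. Of 22 tested neighbours 6 rose and 11 fell, with 5 not called, beside 27.3% of all tested genes that rose and 26.5% that fell. Beside GAS5, the zinc finger gene ZBTB37, which starts next to it, fell 1.68-fold and CENPL had 28.3 and 28.2 CPM. Beside SNHG1, the ribosome biogenesis gene WDR74 fell from 60.2 ± 6.07 to 37.6 ± 2.02 CPM, while the amino acid transporter subunit gene SLC3A2 rose from 328 ± 16.4 to 410.0 ± 11.8 CPM (SD, n = 3). Beside LUCAT1, the arrestin-domain gene ARRDC3 rose 1.48-fold and ADGRV1, an adhesion receptor gene, 1.26-fold, the latter call lost on FPKM (limma adjusted p = 0.26 with a pseudocount of 1). Beside NEAT1 and MALAT1, FRMD8 fell 1.16-fold. It was not called with library sizes alone (log2 fold change -0.13), and on FPKM its log2 fold change was 0.07. TLCD2, next to MIR22HG, rose 2.34-fold from 2.61 ± 0.258 to 6.12 ± 0.189 CPM (SD, n = 3; edgeR adjusted p = 7.5e-06), while WDR81 on its other side fell 1.40-fold. The strand setting of the counting is not given, so reads of genes that overlap cannot be told apart.

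**Figure D4:**
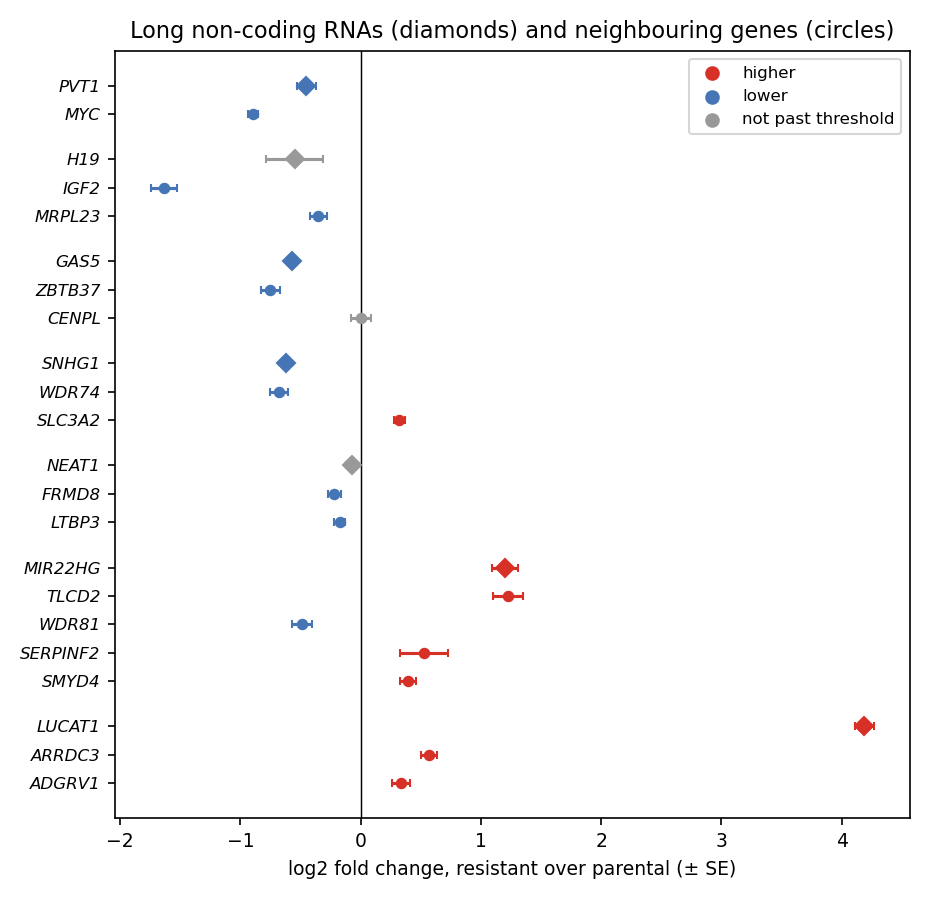
Log2 fold change (resistant over parental, ± SE) of 7 long non-coding RNAs (diamonds) and selected neighbouring genes (circles), grouped by locus; colours give the edgeR call. IGF2 and MYC lie further to the left than H19 and PVT1, TLCD2 lies at 1.22 beside MIR22HG at 1.20, and SLC3A2 lies on the other side of 0 from SNHG1.

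Within each library PURPL and LUCAT1 were set against the other 7 transcripts, which removes the scaling between libraries. The median count of the 7 was that of MALAT1 in every library, so ratios to this median are ratios to MALAT1 alone. The log2 ratio of PURPL counts to the median was -7.96, -8.58 and -8.27 in the parental and -3.31, -3.79 and -3.34 in the resistant libraries. For LUCAT1 it was -5.73, -5.93 and -5.39 against -1.09, -1.37 and -1.18. The change between group means was 4.79 for PURPL and 4.47 for LUCAT1. It was 5.10 and 4.78 against GAS5 and SNHG1 alone, the growth-linked pair, and 4.68 and 4.37 against NEAT1 and MALAT1 alone, the abundant nuclear pair. PURPL and LUCAT1, both chosen with this contrast known, differed between the groups by similar amounts. The log2 ratio of LUCAT1 to PURPL counts was 2.58 ± 0.33 in the parental and 2.27 ± 0.13 in the resistant libraries (SD, n = 3). Within the parental group the ratio was 2.23, 2.65 and 2.87 in replicates 1, 2 and 3, on 16, 15 and 9 PURPL counts. The Poisson intervals of these counts overlap, so whether PURPL and LUCAT1 moved together within the group cannot be told.

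**Figure D5:**
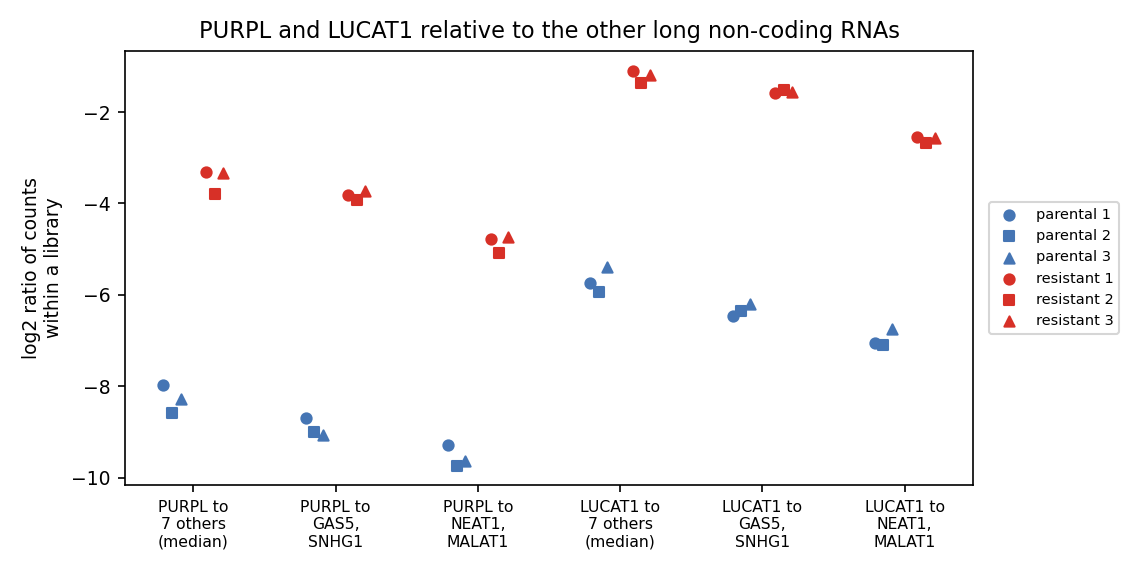
Log2 ratio of PURPL or LUCAT1 counts to other long non-coding RNAs within each library, for 3 reference sets; blue symbols are parental and red symbols resistant libraries. For each reference the 3 resistant libraries lie above the 3 parental ones, by 4.37 to 5.10 between group means. The median of the 7 others is MALAT1 in every library.

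The genes whose pattern over the 6 libraries was nearest to that of PURPL were sought by the Euclidean distance of centred log2 CPM. The candidates were 11624 tested genes with a symbol and a mean of at least 5 CPM over the 6 libraries. Each gene named here had a parental mean under 5 CPM, such as C1QTNF12 with 0.43 CPM against 10.2 CPM with resistance. These genes therefore passed that filter only through the resistant libraries. The nearest was C1QTNF12, at a distance of 0.445, and LUCAT1 was next at 0.474. ALDH3A1, TNFRSF9 and HKDC1 followed at 0.624 to 0.794. For LUCAT1 the order was TNFRSF9 (0.452), PURPL, TUSC3, HKDC1 and C1QTNF12 (0.655). ALDH3A1, an aldehyde dehydrogenase gene, was 28.3-fold higher in the resistant cells, TNFRSF9, a receptor of the tumour necrosis factor family, 17.1-fold, HKDC1, a hexokinase-domain gene, 13.8-fold, and TUSC3, a gene of protein glycosylation, 14.4-fold. With 2 groups such a distance mostly reflects the size of the difference between the groups.

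Compared per length, on the authors' FPKM, the order of the parental levels was GAS5 (397 ± 11.8), SNHG1 (308 ± 3.76), NEAT1 (283 ± 9.61), PVT1 (132 ± 51.6), MALAT1 (55.2 ± 7.62), LUCAT1 (3.26 ± 0.321), MIR22HG (2.59 ± 0.435), H19 (1.47 ± 0.511) and PURPL (0.520 ± 0.101; FPKM, SD, n = 3). LUCAT1 and MIR22HG were close, and each parental LUCAT1 value was above each MIR22HG value. In the resistant libraries LUCAT1 stood at 54.6 ± 0.903 FPKM and MALAT1 at 45.4 ± 5.98 FPKM. LUCAT1 was the higher of the pair in each library, by the least in replicate 2 (54.0 against 52.1 FPKM). Without scaling to length MALAT1 was the higher, with means of 130 CPM against 55.8 CPM for LUCAT1. PURPL stood at 10.7 ± 0.668 FPKM, above MIR22HG at 7.41 ± 0.854 and H19 at 1.28 ± 0.335 FPKM. SNHG1, at 221 ± 3.41 FPKM, was below NEAT1 at 278 ± 4.88 FPKM, the reverse of the parental order.

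The length that these FPKM imply was taken as CPM divided by FPKM, with CPM here from library sizes without TMM factors. On that unit it also differed between the groups for some transcripts. For GAS5 it was 0.519 to 0.568 kb in the parental and 0.459 to 0.468 kb in the resistant libraries, for SNHG1 0.860 to 0.877 kb and 0.825 to 0.848 kb, and for MIR22HG 1.76 to 2.09 kb and 1.53 to 1.69 kb. All 3 were shorter in every resistant library, as were 3.88% of 13089 genes with at least 1 FPKM in each library. LUCAT1 went the other way, from 0.878 to 0.965 kb in the parental and from 1.02 to 1.10 kb in the resistant libraries, as did 28.4% of genes. For NEAT1 the implied length was 3.02 to 3.29 kb over all libraries. For MALAT1 it was 2.31 to 3.29 kb in the parental and 2.94 to 2.98 kb in the resistant libraries, so its parental FPKM do not follow its counts. For PVT1 it was 0.0531 to 0.225 kb, shorter than any other of the 9 transcripts, so the FPKM of PVT1 do not give its place in the order. How the authors set the length is not given in the sources used here.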

How the data were processed

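Total RNA of 6 samples was made into libraries with SMARTER mRNA reagents, per the labels' protocols. The authors deposited raw counts for each gene. A second deposited table was taken as FPKM, although its header gives no unit, because of its values. Not given in the sources used here: aligner, counting tool, annotation release, strand setting. Mouse is the organism named in the labels, with GRCm38 and mm10 in the submitters' processing notes, but 30616 of 31456 rows carry human Ensembl identifiers. The mouse reference was therefore not used, and no coordinates or sequences are given. Another 840 rows are unnamed gene models.

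Counts were fitted with edgeR 4.0.16 in R 4.3.3 (TMM, filterByExpr, robust glmQLFit and glmQLFTest, two-sided, Benjamini-Hochberg adjustment over 16605 genes, threshold 0.05), without a replicate block. The SE is the log2 fold change divided by the square root of F. An exact permutation test of 3 against 3 libraries cannot go below p = 0.10 and was not made. The alternatives used RLE factors, library sizes alone, other filters, DESeq2 1.42.0, limma 3.58.1 on log2(FPKM + pseudocount of 0.1 or 1), a replicate block and leaving out each library. These FPKM folds are on that scale, on which the pseudocount draws the folds of low genes toward 0.

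The transcripts and gene lists were chosen with earlier results of these data known. Named are the 9 transcripts, from each list the 4 or 5 genes with the smallest adjusted p, the tested neighbours and the nearest patterns. Some of these genes are not reported here. SFPQ, NONO, CLK1, CLK4, MIR31HG, LINC02001, SNHG29, ZFAS1, CASC8, CDKN1A and ABCC2, and the undetected marker genes, were named after their values were seen. Where a symbol had several rows, that with the most counts was kept. Tested on simulated data for this comparison, with 16390 genes fitted and 50 changed by each fold, edgeR found 6 of those at 1.25-fold. It found 29 at 1.5-fold, 46 at 2-fold and, of the 4-fold changes, 49. There were 8 false calls. Those data had 1 dispersion for all genes, set in advance and not estimated from these libraries. The shares found hold for that setting and not for the real comparison, where genes such as FRMD8 were called at 1.16-fold.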

Additional observations from a re-analysis of the deposited data

How the results depend on the processing

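The number of genes called was 6950 to 9973 in 14 of 15 alternatives and 5450 on FPKM with a pseudocount of 0.1 and no filter. Leaving out 1 library gave 7666 to 9209. Between 5 and 7 of the 9 transcripts were called. PURPL, LUCAT1, MIR22HG, GAS5 and SNHG1 kept direction and call in all 15 alternatives. The change of the PURPL ratio was 4.36 from FPKM and 5.10 against GAS5 and SNHG1 (4.63 to 4.94 without 1 library). For LUCAT1 it was 4.04 and 4.78 (4.35 to 4.62 without 1 library). On FPKM the median of the other 7 transcripts was PVT1 in each library except resistant replicate 3, where it was SNHG1. The values of 4.36 and 4.04 thus rest mostly on the FPKM of PVT1, which do not follow its counts. Against GAS5 and SNHG1 on FPKM the changes were 4.75 for PURPL and 4.44 for LUCAT1. As log2 fold changes, NEAT1 had 0.018 with library sizes alone and PVT1 0.12 on FPKM in 3 settings, and FRMD8 had 0.074 and 0.077 on FPKM. The marker genes VWF (-0.016 and -0.063) and KRT20 (-0.027 with a pseudocount of 1) also turned on FPKM. The cause was not tested. CENPL, near 0, turned to -0.0097 with RLE factors, -0.018 with no filter, -0.011 in DESeq2 and -0.0013 with the replicate block, and lay between -0.072 and 0.072 without 1 library. EHBP1L1 lay between -0.021 and 0.064 without 1 library.

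Replicate numbers are shared by the groups and gave deviation correlations of 0.088, 0.21 and 0.049 between same-numbered libraries. Between libraries of unlike number the correlations ranged from -0.16 to 0.10. The largest of all was the 0.21 of replicate 2, whereas parental replicate 3 correlated best with resistant replicate 1 (0.10). These values do not settle whether the numbers pair libraries. The labels do not say that they do, and the main fit did not take them as pairs. With the replicate block 9973 genes and 7 of the 9 transcripts were called, MALAT1 among them (log2 fold change -0.29, edgeR adjusted p = 1.6e-05). H19 was also called with no filter (-0.57). Of 1331 gene values under alternatives 1264 kept direction and call, and 40 lost the call, 26 of these on FPKM and 9 for SERPINF2 (edgeR adjusted p = 0.045). Of 450 list counts 52 moved by over 1.5 times, 38 of them on FPKM. With library sizes alone 5 of 20 decay factors and 7 of 16 RNA processing genes fell. Among the 9 transcripts the counts were lowest for parental PURPL and for H19.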

Other observations

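Of 20 tested factors of nonsense-mediated decay, which removes spliced GAS5 and SNHG1, 10 fell and 2 rose (median log2 fold change -0.12). UPF3B, which links the exon junction to the decay machinery, fell 1.53-fold from 33.6 ± 1.20 to 22 ± 0.581 CPM (SD, n = 3; edgeR adjusted p = 3.4e-06), and the helicase gene DHX34 fell 1.49-fold. Of 16 genes that process or degrade nuclear non-coding RNA 12 fell and 4 were not called in edgeR. None of the 16 rose in edgeR, in DESeq2 or on FPKM, and at an unadjusted p under 0.05 the number higher in edgeR was 0. The exonuclease gene XRN2 fell 1.31-fold, the exosome gene EXOSC10 1.37-fold, and ELAC2, the nuclease that trims transfer RNA ends, 1.52-fold. Of all tested genes 26.5% fell. With library sizes alone the falls in these lists were 5 and 7, so the counts depend on the scaling.

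Of 11 tested imprinted genes of the network that includes H19, 3 rose and 6 fell, beside 27.3% and 26.5% of all tested genes. Beside IGF2, PLAGL1, a zinc finger regulator of this network, fell 1.41-fold from 59.3 ± 1.95 to 42.0 ± 2.91 CPM, and GRB10, an adaptor that limits insulin signalling, rose 1.34-fold from 51.1 ± 2.05 to 68.3 ± 1.31 CPM (SD, n = 3; edgeR adjusted p = 2.7e-05 and 2.5e-05).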
